A study of Mus musculus with 232 samples.

Results

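Neuroblasts of the dentate gyrus are described here: the 1381 cells, of 24185 in all, that the authors' own cell annotation places in the cluster named Neuroblast. Single cells of mouse dentate gyrus were profiled at 8 ages with the 10X Genomics Chromium kit, version 2, which counts unique molecular identifiers (UMIs, 1 tag per captured RNA molecule). The perinatal ages were E16.5, P0 and P5, all from CD-1 mice whose sex is given as unknown. The juvenile ages were P18 and P23, from CD-1 males, and P19, from C57Bl/6 females. The adult ages were P120 (2 males and 1 female) and P132 (3 males and 1 female) of the line hGFAP-GFP, a reporter line in which green fluorescent protein is expressed from the human GFAP promoter, active in astrocytes and stem cells. Adult cells were sorted for that fluorescence and the other cells were not, so adult age, line and sort cannot be told apart. Each age is 1 pool of animals and counts as 1 replicate, 3 perinatal, 3 juvenile and 2 adult, whether it was run as 1 library or as 2. No label says that ages of 1 stage repeat each other, so p-values measure the spread between these ages.

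Neuroblasts are young neurons that have left, or are leaving, the cell cycle. In the dentate gyrus, radial glia-like stem cells give rise to intermediate progenitors, these to neuroblasts, and neuroblasts to immature and then mature granule cells, the main excitatory neurons of the region. Migrating neuroblasts carry a microtubule-rich leading process, and granule cell fate is maintained by the homeobox factor Prox1. As the names are commonly read, nIPC are the neuronal intermediate progenitors and RGL the radial glia-like cells. Immature-GC are the immature granule cells and GC the granule cells. Some of these classes are sums of the authors' clusters. Here nIPC sums the clusters nIPC and nIPC-perin, RGL sums RGL and RGL_young, and GC sums GC-juv and GC-adult. Whether the mix of clusters within a class moved with stage, and its part in the results, was not tested.

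The Neuroblast class held 206 cells at E16.5, 456 at P0, 426 at P5, 24 at P18, 67 at P19, 47 at P23, 130 at P120 and 25 at P132. Their summed UMIs ran from 41126 at P18 to 1693504 at P5. Median UMIs per cell ran from 3547 to 5029 at the perinatal ages, from 1609.5 to 3134 at the juvenile ages and from 1843 to 3049.5 at the adult ages. The fewest UMIs in any E16.5 cell, 4277, exceeded the most in any P18 cell, 2963, so depth moved with stage, and its part in the results was not tested beyond the thinned values given below. Cell barcodes recur between libraries for 73 of the 1381 cells. The sex genes followed the labels: at P18 and P23 Xist, the X-inactivation RNA, was at 0, and at P19 it was at 2075 UMIs per 1000000 UMIs of the sum (CPM) with the 4 Y-linked genes listed at 0. Among the unlabelled pools Xist was at 1948 CPM at E16.5, 538.7 CPM at P0 and 0 at P5.

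Levels below are CPM in the summed cells of the class at 1 age. The 5 markers of the class were high in it. Because the clusters were drawn on these same cells, this describes the label and cannot test it. When genes were ordered by their mean fold over the other classes of the same age, Igfbpl1 came 1st at 11.2-fold, Eomes 4th, Sox11 6th, Calb2 8th and Neurod4 11th, and Neurod1, Neurog2 and Dcx were also among the top 20. Only classes with 20 or more cells at an age were compared. This left out nIPC at P23 (19 cells) and P132 (17 cells) and Immature-GC at P120 (14 cells), the neighbours in the lineage. Igfbpl1, an insulin-like growth factor binding protein-like gene, was higher in Neuroblast cells than in any other class compared at all 8 ages. Eomes, the T-box factor of intermediate progenitors, Sox11, a factor that switches on neuronal genes, and Neurod4, a basic helix-loop-helix factor, each had their highest level in the class at 7 of 8 ages. Calb2, the calcium-binding protein calretinin of newborn granule neurons, did so at 5 of 8. With every cell thinned to 1000 UMIs, between 91.7% and 100% of the cells of an age held a UMI of at least 1 of the 5 markers. In vascular and immune cells (endothelial cells, microglia, perivascular macrophages and vascular leptomeningeal cells), which should lack them, that share was 0% to 14.4%. Among leading genes outside the marker list, Tac2, which encodes the peptide precursor of neurokinin B, came 2nd at 8.60-fold and was highest in this class at 7 of 8 ages.

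**Figure D1:**
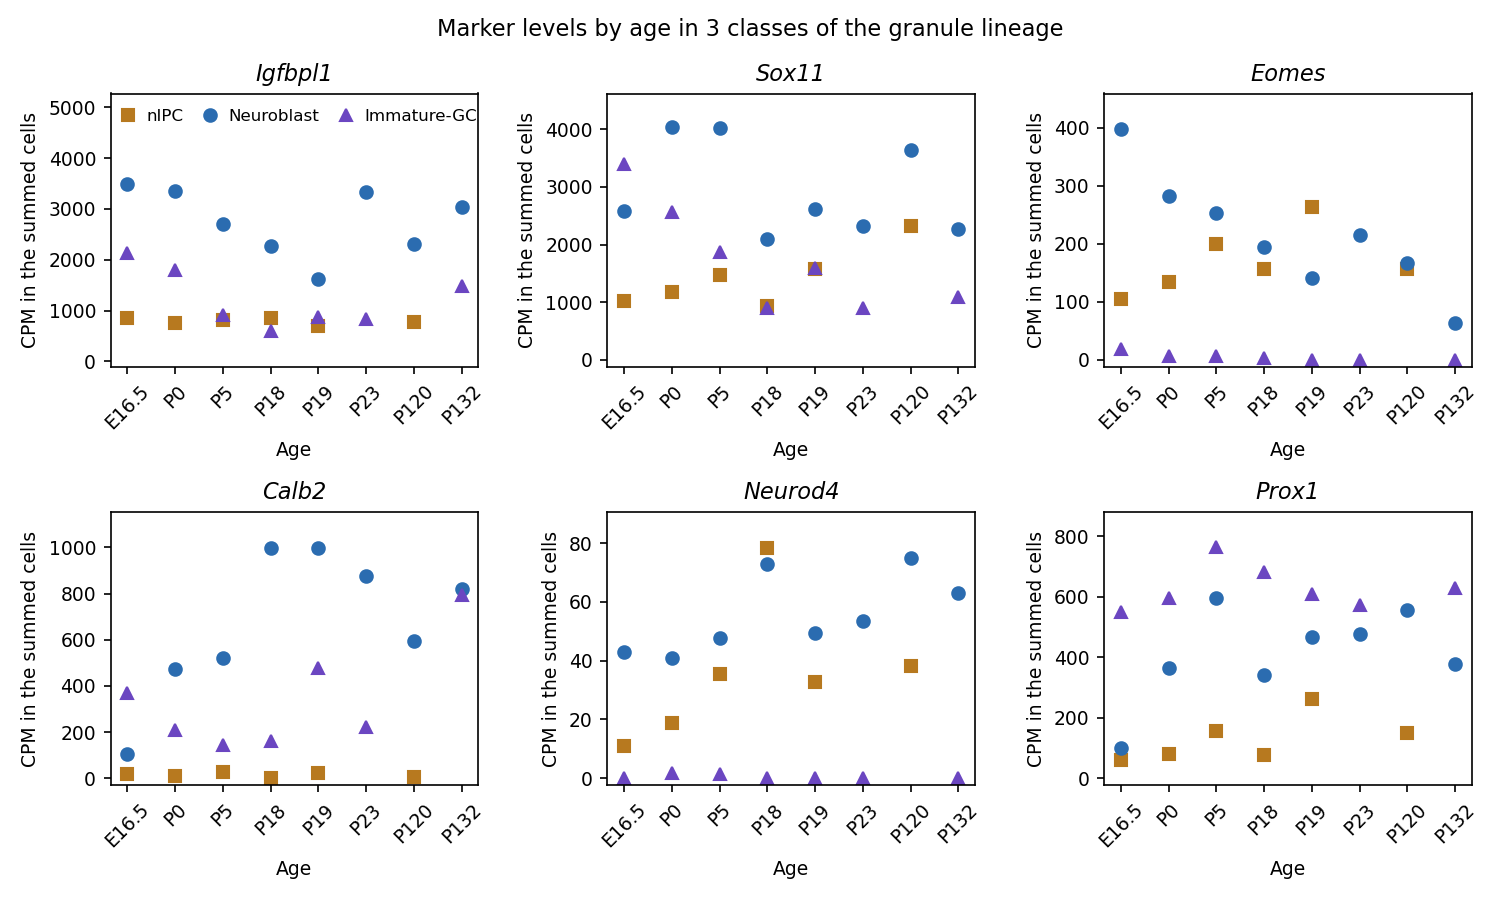
Levels (CPM, linear axes) of the 5 markers and of Prox1 by age in summed nIPC, Neuroblast and Immature-GC cells, 1 point per class and age, with sums under 20 cells left out. Igfbpl1 was highest in Neuroblast cells at every age, whereas Prox1 in Neuroblast cells was at 99.5 CPM at E16.5 and 597 CPM at P5 and lay below the Immature-GC level at every age where both are plotted.

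The 5 markers did not move alike with age. Igfbpl1 was at 3491, 3352 and 2703 CPM at E16.5, P0 and P5, at 2261, 1629 and 3340 CPM at P18, P19 and P23, and at 2301 and 3042 CPM at P120 and P132. Its stages overlapped. Calb2 was at 106, 474 and 521 CPM at the perinatal ages, at 997, 999 and 875 CPM at the juvenile ages and at 596 and 818 CPM at the adult ages. Every age from P18 on was above every perinatal age, and E16.5 stood lowest. Eomes was at 397, 281 and 253 CPM, then at 195, 142 and 214 CPM, then at 167 and 62.9 CPM, with every later age below every perinatal one. Sox11 was at 2583, 4045 and 4015 CPM at the perinatal ages and at 2091, 2613 and 2316 CPM at the juvenile ages, where the stages overlapped through E16.5. Neurod4, the lowest of the 5, stayed between 41.1 and 74.8 CPM.

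Between juvenile and perinatal ages, none of these 5 markers was called by edgeR's quasi-likelihood test at a Benjamini-Hochberg adjusted p under 0.05. DESeq2 called 0 of 5, while 3 of 5 had an unadjusted p under 0.05, beside 923 of 7091 genes tested. The log2 fold change of Calb2 was 1.29 ± 0.39 (SE, edgeR adjusted p = 0.158), that of Eomes -0.87 ± 0.29 (edgeR adjusted p = 0.208) and that of Sox11 -0.69 ± 0.23 (edgeR adjusted p = 0.205). In cells thinned to 1000 UMIs, a Calb2 UMI was found in 7.28% of cells at E16.5 (95% exact binomial interval 4.13 to 11.7), 23.7% at P0 and 34.5% at P5. At P18, P19 and P23 the shares were 25%, 55.2% and 48.9%, and the P18 interval of 9.77 to 46.7% covers the P0 and P5 shares. In vascular and immune cells the Calb2 share never exceeded 2.97%, with median depths of 1828 to 7373 UMIs before thinning. Before thinning, the Neuroblast shares were 19.4%, 46.3% and 59.6% at the perinatal ages and 45.8%, 59.7% and 68.1% at the juvenile ages. Intervals cover counting error only.

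Neuroblast cells were a near-constant share of the perinatal tissue and a small one later. They were 9.02% of all cells at E16.5, 9.54% at P0 and 9.61% at P5, then 0.885% at P18, 3.22% at P19 and 1.74% at P23. The stages did not overlap, and their means were 9.39% ± 0.324 and 1.95% ± 1.18 (SD, n = 3 ages each). The two-sided exact permutation test gave p = 0.1, the smallest that 3 against 3 allows (adjusted p = 0.15 over 3 such tests). As a share of the granule lineage (RGL, nIPC, Neuroblast, Immature-GC and GC), they were 36.8%, 32.3% and 19.2% at the perinatal ages and 1.23%, 5.34% and 3.26% at the juvenile ages. That comparison also gave an exact permutation p = 0.1. Shares are of captured cells, and mature granule cells numbered 0 to 8 at a perinatal age and 990 to 1629 at a juvenile age.

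Set against nIPC cells, the class before it in the lineage, its number did not differ between the stages beyond their spread. There were 0.981, 2.33 and 1.54 Neuroblast cells per nIPC cell at the perinatal ages and 0.828, 2.31 and 2.47 at the juvenile ages. These ranges overlap, and the exact permutation test on the log2 ratio gave p = 0.9. Per Immature-GC cell there were 5.57, 1.05 and 0.335 Neuroblast cells at E16.5, P0 and P5 and 0.0934, 0.459 and 0.203 at P18, P19 and P23. The P19 value lies above that of P5, and this ratio was not tested. Among the sorted adult cells the class made up 9.54% at P120 and 0.653% at P132, so the 2 adult ages differ more from each other than the 2 earlier stages differ in their means. The P0 libraries held 9.50% and 9.58% Neuroblast cells and the P5 libraries 8.76% and 10.5%. The P132 libraries, with 8 and 17 such cells, held 0.420% and 0.883%.

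**Figure D2:**
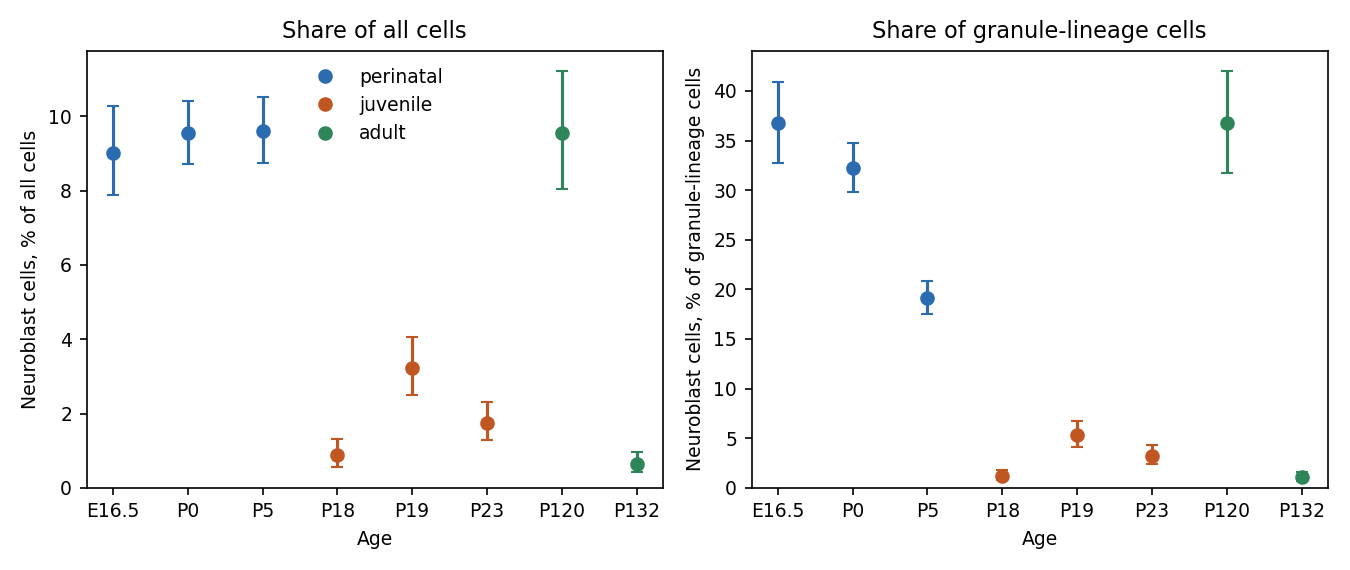
Neuroblast cells as a percentage of all cells (left) and of granule-lineage cells (right) at each age, with exact 95% binomial intervals that cover counting error only. The 3 perinatal ages lie between 9.02% and 9.61% of all cells and the 3 juvenile ages between 0.885% and 3.22%, with sorted P120 cells at 9.54%.

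Several transcription factors of the granule lineage, chosen after their values were seen, had their lowest or highest level at E16.5. Prox1 was at 99.5 CPM at E16.5, 363 CPM at P0 and 597 CPM at P5, then at 340, 467 and 476 CPM at the juvenile ages and at 558 and 378 CPM at the adult ages. In thinned cells a Prox1 UMI was found in 6.31% of E16.5 cells (interval 3.40 to 10.6), 26.1% of P0 cells and 41.8% of P5 cells, against 0% to 8% of vascular and immune cells. Zbtb20, a zinc finger factor of hippocampal neurons, was likewise lowest at E16.5, at 1702 CPM, against 4940 CPM at P0 and 5596 CPM at P5. Neurog2, a proneural factor, ran the other way, at 794 CPM at E16.5, 219 CPM at P0 and 185 CPM at P5. It was at 316, 120 and 119 CPM at the juvenile ages, with P18 above P0 and P5, and at 36.2 CPM at P120 and 62.9 CPM at P132. With 1 pool at E16.5, these differences between single ages have no replicate check.

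Of the 26 lineage factors tested between juvenile and perinatal ages, edgeR called 0 higher and 1 lower. Negative fold changes were found for 18 of 26, beside 3719 of all 7091 genes. Their median log2 fold change was -0.39 beside -0.04 over all genes. At an unadjusted p under 0.05, 9 were lower and 2 higher, beside 496 lower and 427 higher of all 7091 genes. The factor called was Neurod6, a basic helix-loop-helix factor best known from pyramidal neurons. Neurod6 was at 388, 257 and 132.3 CPM at E16.5, P0 and P5 and at 24.3, 70.8 and 59.5 CPM at P18, P19 and P23. All juvenile ages were below all perinatal ages, and its log2 fold change was -2.23 ± 0.46 (SE, edgeR adjusted p = 0.0431). Meis2, a homeobox factor of the list of pyramidal neuron markers, followed the same order, at 222, 152 and 43.7 CPM and then at 0, 7.08 and 11.9 CPM, and missed the threshold (log2 fold change -4.10 ± 0.90, edgeR adjusted p = 0.0526). Summed over the 9 measured genes of that list, the level was 1250, 1036 and 686 CPM at the perinatal ages and 389, 496 and 625 CPM at the juvenile ages. Both genes also mark neurons outside the granule lineage, and the part of such cells in the class was not tested. Neurod6 alone was also found in Immature-GC cells, in 11.7% to 24.3% of thinned cells at perinatal and 9.91% to 17.1% at juvenile ages. A UMI of Neurod6 or Meis2 was found in 37.4%, 27.2% and 15.7% of thinned cells at E16.5, P0 and P5 and in 0% to 8.96% at the juvenile ages. At P0 the cells with a Prox1 UMI held one of these 2 genes in 16% of cases (interval 9.90 to 23.8, 119 cells) and those without Prox1 in 31.2% (26.2 to 36.4, 337 cells). At P5 the order was the opposite, 19.7% against 12.9%, with overlapping intervals.

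At P0 and P5, the markers were not spread evenly over the cells. At P0, cells with an Eomes UMI held a Calb2 UMI in 11.6% of cases (interval 5.92 to 19.8, 95 cells) and cells without Eomes in 26.9% (22.4 to 31.8, 361 cells). At P5 the shares were 20.2% (12.6 to 29.8, 94 cells) and 38.6% (33.3 to 44.0, 332 cells). A Neurog2 UMI showed the reverse: 23.2% of P0 cells with Eomes and 9.42% of those without, and 25.5% against 9.04% at P5. At P120 the Calb2 shares were 40% of 15 cells with Eomes (interval 16.3 to 67.7) and 34.8% of 115 without (26.1 to 44.2). These shares come from cells of 1 pool at each age and are a description, without a test over replicates.

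To ask how the class differed between stages, counts were summed over its cells at each age and compared with edgeR. Between the 3 juvenile and 3 perinatal ages, 31 of 7091 genes tested were called (0.437%), 19 higher (0.268%) and 12 lower (0.169%), with 923 genes under an unadjusted p of 0.05. The lower genes included the adhesion gene Cntn2, the filament gene Vim, the extracellular matrix gene Mfap4 and the factors Neurod6 and Lhx9. The higher genes included histones, the replication factor Pcna, the activity-responsive Junb, synaptic genes and myelin genes. The call count rests on single pools: without P18 it was 2, without P0 it was 3, without P19 8, without P23 51, without E16.5 103 and without P5 43. DESeq2 called 80 genes, 28 of them among the 31. With totals in place of scaling factors, 28 genes were called, 23 higher and 5 lower. The first number of the library names is 83 for P0 and P18 and 84 for P5 and P23, and with it as a block over those 4 ages 46 of 8182 genes were called, 20 of the 31 among them. What that number marks is not stated, and E16.5 and P19 carry numbers that no other perinatal or juvenile age shares.

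**Figure D3:**
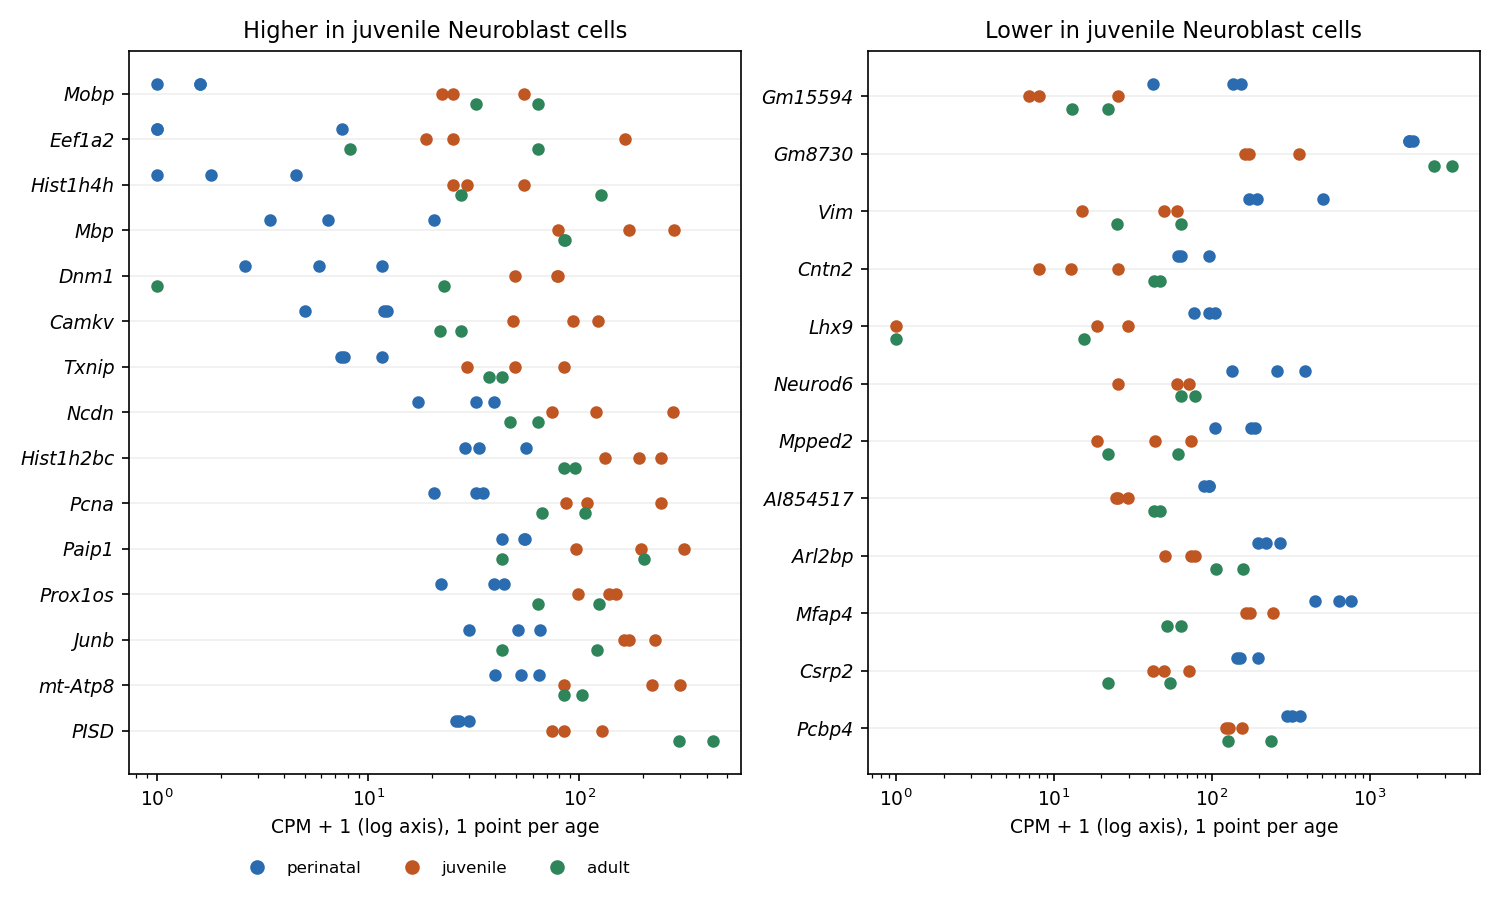
Levels at each age (CPM + 1, log axis) of the 27 genes named by rule in the juvenile against perinatal comparison, 1 point per age, with adult ages added for reference. In each row every juvenile point lies on one side of every perinatal point, which the naming rule required.

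Among the lower genes, Mfap4, a microfibril-associated glycoprotein gene that ranked 5th among the genes leading the class, was at 758, 641 and 449 CPM at the perinatal ages and at 243, 163 and 173 CPM at the juvenile ages. At P120 and P132 it was at 50.7 and 62.9 CPM. In vascular and immune cells Mfap4 was at 209, 167 and 147 CPM and then at 19.1, 5.49 and 10.2 CPM, so its level differed between stages there too. Its log2 fold change between juvenile and perinatal ages was -1.86 ± 0.29 (SE, edgeR adjusted p = 0.0105), and among the 6 ages left out in turn the call was lost without P0 and without P18. Vim, the intermediate filament vimentin of progenitors, was at 503, 172 and 191 CPM and then at 48.6, 14.2 and 59.5 CPM. It fell by 2.96 ± 0.57 on the log2 scale (SE, edgeR adjusted p = 0.0285). In vascular and immune cells it was also lower at juvenile ages, at 188 to 218 CPM against 410 to 618 CPM. Cntn2, the axonal adhesion protein contactin 2, was at 59.9, 94.8 and 63.2 CPM and then at 24.3, 7.08 and 11.9 CPM, from 4 UMIs in all juvenile cells. Its log2 fold change was -2.73 ± 0.55 (SE, edgeR adjusted p = 0.0373).

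The remaining lower genes moved by similar amounts. Lhx9, a LIM homeobox gene, was at 104, 95.4 and 75.6 CPM and then at 0, 28.3 and 17.9 CPM, from 7 juvenile UMIs. Mpped2 was at 187, 175 and 103 CPM and then at 72.9, 42.5 and 17.9 CPM. Csrp2, a LIM domain protein gene, Pcbp4, an RNA-binding protein gene, Arl2bp and AI854517 fell by 1.33 to 1.93 on the log2 scale. Gm15594, an antisense transcript on chromosome 6, was at 41.3, 135 and 152 CPM and then at 24.3, 7.08 and 5.95 CPM. Its 3 juvenile UMIs put it at 13.6 times lower in the pooled juvenile cells, with a counting interval of 4.62 to 66.0. Whether reads were counted by strand is not given in the sources used here. How far antisense genes can be told apart from partners that they overlap is therefore uncertain. Of the 12 lower genes, 10 were above the vascular and immune level at all 3 perinatal ages. In those other cells, 5 of the 12 were themselves lower at every juvenile than every perinatal age. The share over all genes was not counted here either.

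Among the higher genes, 11 of 19 were above the level in vascular and immune cells at all 3 juvenile ages, and 4, Txnip, Junb, Cd81 and Cst3, were below it at all 3. In those other cells, 11 of the 19 were themselves higher at every juvenile than every perinatal age. The share over all genes was not counted, so these counts are a description of the called genes only. The myelin genes show the higher juvenile level in those other cells most plainly. Mbp, myelin basic protein, was at 2.43, 5.44 and 19.5 CPM in perinatal and at 170, 77.9 and 280 CPM in juvenile Neuroblast cells (log2 fold change 4.14 ± 0.56, SE, edgeR adjusted p = 0.00392). In vascular and immune cells it was at 4.72, 3.16 and 7.79 CPM and then at 76.5, 71.3 and 247 CPM. In thinned juvenile cells a Mbp UMI was found in 8.33%, 4.48% and 23.4% of Neuroblast cells and in 7.92%, 6.67% and 15.9% of vascular and immune cells. The part of free RNA in these values was not tested. Mobp rested on 2 perinatal and 13 juvenile UMIs, a ratio of 85.1 with a counting interval of 19.3 to 777. Summed over 9 oligodendrocyte genes, the level was 195 to 524 CPM at juvenile ages against 22.7 to 72.0 CPM before, with Mag, Mog and Mal at 0 to 3 UMIs at each of these ages.

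Histone and replication genes were not at that level. Hist1h2bc, a histone H2B gene, was at 32.4, 27.8 and 54.9 CPM and then at 243, 191 and 131 CPM, against 22.9 to 54.9 CPM in juvenile vascular and immune cells. Its log2 fold change was 2.08 ± 0.34 (SE, edgeR adjusted p = 0.0105). Hist1h4h, a histone H4 gene, was at 0.809, 0 and 3.54 CPM and then at 24.3, 28.3 and 53.6 CPM, from 7 perinatal and 14 juvenile UMIs. Pcna, the sliding clamp of DNA replication, was at 19.4, 33.8 and 31.3 CPM and then at 243, 85.0 and 107 CPM (log2 fold change 1.99 ± 0.38, SE, edgeR adjusted p = 0.0285). Of the 25 genes of the cell cycle list, 12 were tested, 1 (Pcna) was called higher and 0 lower, and the summed level was 1216 to 1500 CPM at juvenile ages against 1050 to 1258 CPM before. Mki67, a marker of dividing cells, was at 4.86, 4.23 and 19.5 CPM and then at 0, 49.6 and 11.9 CPM. Leaving out any of the 6 ages ended the call or the test of Hist1h4h, and leaving out P0, P18 or P23 ended that of Pcna. Without the cells that held 3 or more UMIs of cycling genes, Hist1h4h lost its call and Pcna had too few counts to be tested. Those genes were the cell cycle list without Ccnd2, Cdkn1c, Cdkn1b and Btg1. Pcna was itself among them, so leaving out such cells lowers Pcna by construction and cannot show where its rise lies.

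Several synaptic and neuronal genes were higher at juvenile ages. Camkv, a kinase-like vesicle protein gene, was at 4.05, 10.9 and 11.2 CPM and then at 122, 92.1 and 47.6 CPM (log2 fold change 2.99 ± 0.50, SE, edgeR adjusted p = 0.0113). Ncdn, the neuronal protein neurochondrin, was at 16.2, 31.4 and 38.4 CPM and then at 73.0, 276 and 119 CPM (log2 fold change 2.48 ± 0.41, SE, edgeR adjusted p = 0.0105). Both were highest in a single age, Camkv at P18 and Ncdn at P19. The Ncdn level in vascular and immune cells of P19 was 266 CPM, close to that of the Neuroblast cells, whereas Camkv there was at 19.1 to 49.4 CPM at the juvenile ages. Dnm1, the synaptic dynamin, and Gpm6a, a membrane protein of growing neurites that stood outside the 15 largest changes, were also called, with log2 fold changes of 3.50 and 1.34. Dnm1 was at 48.6, 77.9 and 77.4 CPM at the juvenile ages, against 30.6, 123 and 46.2 CPM in vascular and immune cells, which held 6.31 to 7.79 CPM of it at perinatal ages. Eef1a2, the translation elongation factor of mature neurons, was at 0, 0 and 6.50 CPM and then at 24.3, 163 and 17.9 CPM, so its call rested mainly on P19.

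The maturation and synapse list as a whole lay towards higher levels. Of its 32 genes 28 were tested and 23 had a positive fold change, beside 3372 of all 7091 genes. An unadjusted p under 0.05 was found for 13, all of them higher, and 1, Ncdn, was called. At that unadjusted p, 427 of all 7091 genes were higher and 496 lower. The median log2 fold change of the list was 0.82 beside -0.04 over all genes. Camk2a and Slc17a7, the calcium kinase and the glutamate transporter of mature excitatory neurons, were at 0 to 17.7 CPM and 0.604 to 15.3 CPM at perinatal ages and at 24.3 to 106 CPM and 24.3 to 70.8 CPM at juvenile ages. Neither was called (edgeR adjusted p = 0.0849 and 0.113). These genes are abundant in granule cells, which fill the juvenile tissue, and the part of their free RNA was not tested. Of the 28 cytoskeleton and migration genes, all tested, edgeR called 0, DESeq2 1, and 9 had an unadjusted p under 0.05, 2 higher and 7 lower. Dcx, the microtubule protein doublecortin, was at 305, 499 and 473 CPM and then at 340, 333 and 399 CPM.

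The translation list lay the other way, with 17 of its 20 genes lower, beside 3719 of all 7091 genes, and a median log2 fold change of -0.59. At an unadjusted p under 0.05, 11 were lower and 2 higher, beside 496 lower and 427 higher of all 7091 genes. One of the 20 was called, Eef1a2, which was higher. Eef1a1, the common form of the elongation factor, was at 4743, 4863 and 4932 CPM at perinatal ages and at 729, 1827 and 2691 CPM at juvenile ages. The juvenile ages were all lower, but the fold change of -1.52 ± 0.33 (SE) narrowly missed the threshold (edgeR adjusted p = 0.0526). Adult levels were 4131 CPM at P120 and 2622 CPM at P132. The summed list of mitochondrial and energy genes lay the other way, at 52113 to 60810 CPM at perinatal ages and 77011 to 101520 CPM at juvenile ages. Of its 17 genes tested, edgeR called 0 and DESeq2 2, and 4 had an unadjusted p under 0.05, all higher. The mitochondrial gene mt-Atp8, outside that list, was called higher (log2 fold change 1.81 ± 0.38, SE, edgeR adjusted p = 0.0486). It was at 63.1, 38.7 and 52.0 CPM and then at 219, 297 and 83.3 CPM. In juvenile vascular and immune cells mt-Atp8 was at 83.1 to 280 CPM. The part of RNA quality in these values was not tested. Eef1a1 was lower at juvenile ages in Immature-GC cells too, at 1660 to 3250 CPM against 3799 to 4788 CPM. Of 13 immediate early and heat shock genes tested, 8 had an unadjusted p under 0.05 and were higher, 1 lower, and Junb was called (log2 fold change 1.88 ± 0.32, SE, edgeR adjusted p = 0.0147).

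**Figure D4:**
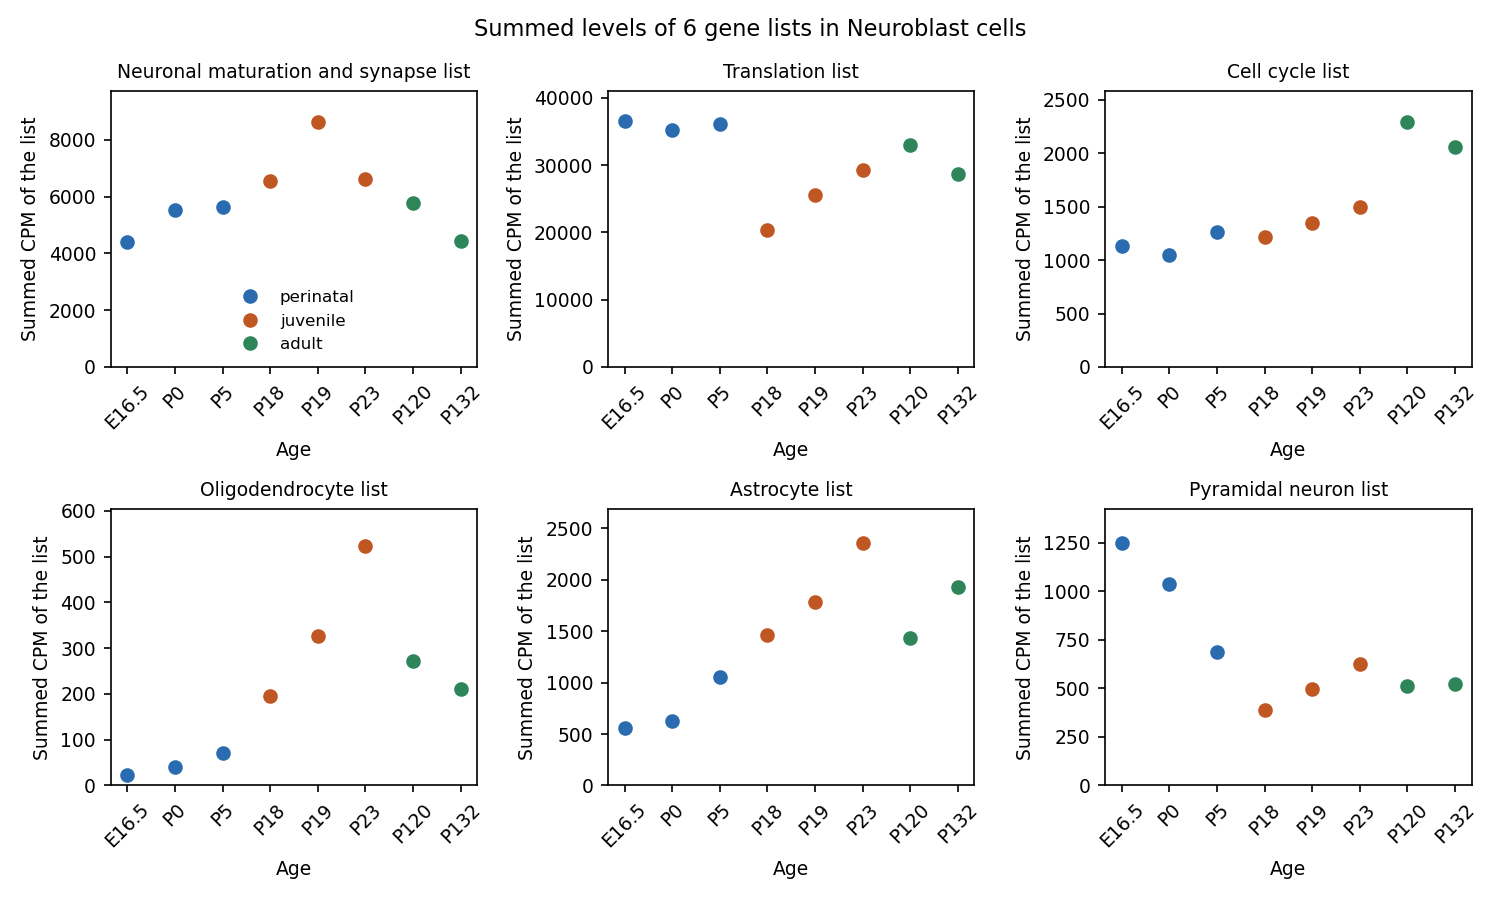
Summed levels (CPM) of 6 gene lists in Neuroblast cells, 1 point per age. The maturation, oligodendrocyte and astrocyte lists are higher at every juvenile than every perinatal age, and the translation and pyramidal neuron lists are lower. The cell cycle list reaches 2289 CPM at P120, of which Ccnd2 holds 1427 CPM, Btg1 311 CPM and Cdkn1b 140 CPM.

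Astrocyte genes moved in the same direction as myelin genes. All 7 of the 8 listed genes that could be tested had positive fold changes, beside 3372 of all 7091 genes. Among the 7, 1 was called, Cst3, the secreted protease inhibitor cystatin C (log2 fold change 1.36 ± 0.26, SE, edgeR adjusted p = 0.0285). The summed list was at 1459 to 2352 CPM at juvenile ages against 555 to 1051 CPM before, while the astrocyte water channel Aqp4 stayed between 0 and 14.2 CPM. Cst3 itself was at 4210 to 37590 CPM in juvenile vascular and immune cells. Cd81, a membrane tetraspanin outside the 15 largest changes, kept its call in 13 of the 15 alternatives, all but those without P0 and without P18, at 443, 284 and 270 CPM and then at 1459, 864 and 982 CPM. It was also at 1776 to 2424 CPM in juvenile vascular and immune cells. How much free RNA of other cells entered these values was not tested.

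The gene with the lowest p-value was Gm8730, which the annotation gives as a processed pseudogene on chromosome 8 (GRCm38, 102864845 to 102865798, minus strand), a copy of the ribosomal protein gene Rplp0 (chromosome 5, 115559467 to 115563727, plus strand). It is shown beside its parent because counts of the 2 can mix. The GENCODE transcript of Gm8730 is 954 bases long and differs from the Rplp0 coding sequence at 12 of them, and 62.8% of its stretches of 31 bases occur unchanged in Rplp0. The last difference is at base 784, so the final 170 bases, nearest the end where this kit reads, are identical. Bases 684 to 803, counted from 1 at the start codon, hold the last 2 differences, A696G and A784G (Rplp0 base, position, Gm8730 base), in capitals.
Rplp0: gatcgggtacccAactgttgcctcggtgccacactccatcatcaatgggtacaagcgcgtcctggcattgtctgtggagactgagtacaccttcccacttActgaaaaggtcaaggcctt
Gm8730: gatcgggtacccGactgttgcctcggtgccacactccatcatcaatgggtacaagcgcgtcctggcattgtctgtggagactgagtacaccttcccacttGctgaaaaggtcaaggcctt
In Neuroblast cells Gm8730 was at 1780, 1761 and 1884 CPM at perinatal ages, at 170, 354 and 161 CPM at juvenile ages and at 3310 and 2560 CPM at adult ages. It fell by 3.03 ± 0.30 on the log2 scale from perinatal to juvenile ages (SE, edgeR adjusted p = 0.000109) and was called in all 15 alternatives, each age left out among them. Rplp0 was at 3054, 2610 and 2060 CPM, then at 1970, 2968 and 2709 CPM, then at 3373 and 2622 CPM, with stages that overlap. The Gm8730 pattern was not particular to the class: in vascular and immune cells it was at 1463 to 1808 CPM, then at 141 to 255 CPM, then at 2323 and 981 CPM. Gm8730 is uncertain as a gene of its own in these counts.

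Whether these changes differed from those of the neighbouring stage was tested through a class by stage interaction with age as a block. Against Immature-GC cells, the change from perinatal to juvenile ages differed for 4 of 9396 genes (0.0426%). Junb, an AP-1 subunit, was at 29.1, 50.1 and 63.8 CPM and then at 170, 227 and 161 CPM in Neuroblast cells, and at 19.1, 67.1 and 155 CPM and then at 1030, 1459 and 1168 CPM in Immature-GC cells. It rose in both classes, less in Neuroblast cells, with a difference of -2.17 ± 0.33 (log2, SE, edgeR adjusted p = 0.000109). Egr1, an immediate early factor, differed by -2.27 ± 0.33 (edgeR adjusted p = 4.79e-05). It was at 28.3, 112 and 167 CPM and then at 122, 262 and 226 CPM in Neuroblast cells and at 9.57, 27.3 and 48.5 CPM and then at 106, 328 and 286 CPM in Immature-GC cells, so Neuroblast cells had the higher level at the 3 perinatal ages and at P18 and the lower one at P19 and P23.

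Nrgn and Prox1os differed in the other direction. Nrgn, the postsynaptic calmodulin-binding protein neurogranin, was at 0, 12.7 and 38.4 CPM and then at 97.3, 184 and 71.4 CPM in Neuroblast cells. In Immature-GC cells it was at 9.57, 459 and 837 CPM and then at 479, 418 and 704 CPM, above the Neuroblast level at all 6 ages (difference of changes 2.41 ± 0.43, log2, SE, edgeR adjusted p = 0.00222). Vascular and immune cells of P19 held 148 CPM. Prox1os, the antisense neighbour of Prox1 on chromosome 1, was at 21.0, 42.9 and 38.4 CPM and then at 97.3, 149 and 137 CPM in Neuroblast cells and at 83.2 to 144 CPM and 86.8 to 113 CPM in Immature-GC cells (difference 1.88 ± 0.40, log2, SE, edgeR adjusted p = 0.0471). DESeq2 called Egr1 and Junb and not Nrgn or Prox1os. With DESeq2's scaling factors in edgeR, 7 genes were called, 5 in the positive and 2 in the negative direction. Without P0 the test called 1 gene, without P5 39, without E16.5 19 and without P19 17.

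**Figure D5:**
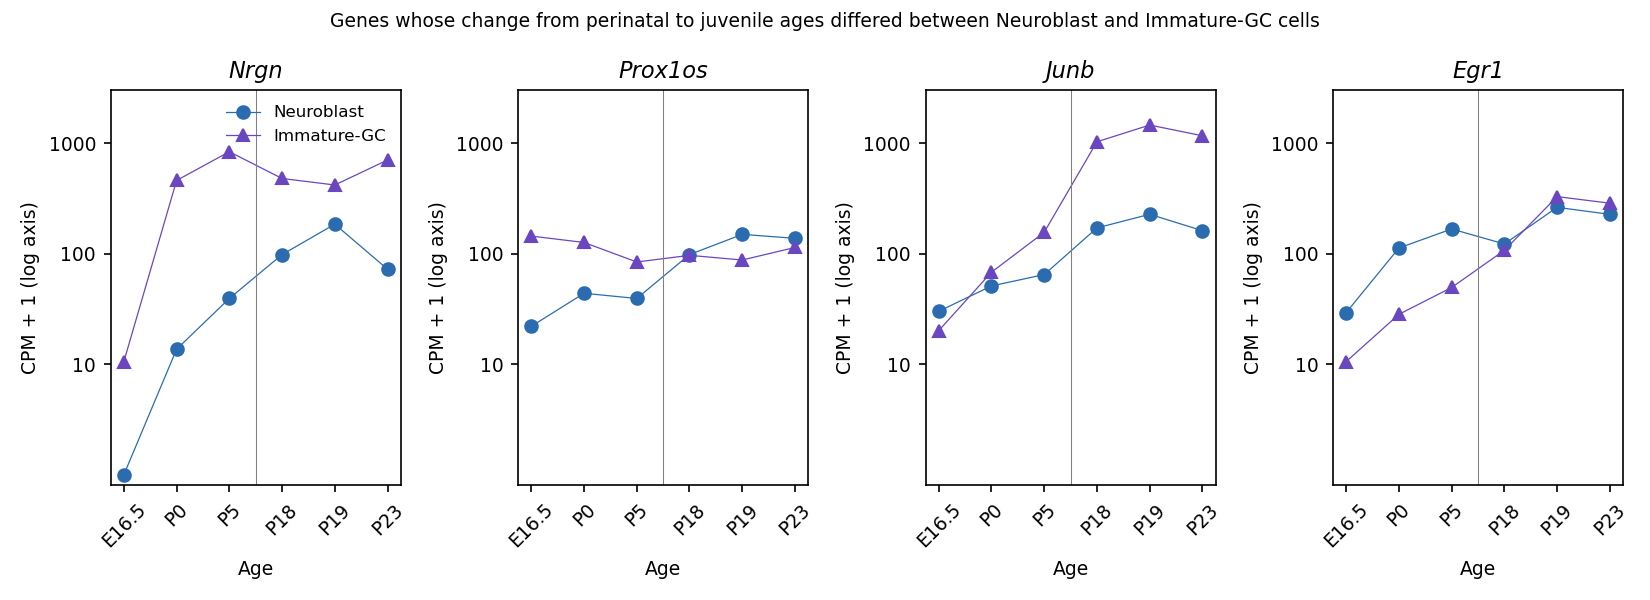
Levels (CPM + 1, log axis) at the 6 perinatal and juvenile ages of the 4 genes whose change differed between Neuroblast and Immature-GC cells, with the stages divided by a vertical line. Junb rises to between 1030 and 1459 CPM in juvenile Immature-GC cells and to between 161 and 227 CPM in juvenile Neuroblast cells.

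Against nIPC cells, which had too few cells at P23 so that 5 ages were used, the change differed for 25 of 10398 genes (0.24%), 11 in the positive and 14 in the negative direction. Mfap4 was at 196, 176 and 182 CPM and then at 188 and 318 CPM in nIPC cells at E16.5, P0, P5, P18 and P19, without the fall seen in Neuroblast cells (difference -2.41 ± 0.38, log2, SE, edgeR adjusted p = 0.00247). Emx1, a homeobox factor of the dorsal telencephalon, was at 413, 336, 271, 146 and 99.2 CPM in Neuroblast cells at those ages and at 166, 121, 126, 298 and 153 CPM in nIPC cells. Its difference was -2.29 ± 0.42 (log2, SE, edgeR adjusted p = 0.0105). E130114P18Rik, Elavl4, a neuronal RNA-binding protein gene, and Gadd45g were the next most negative, at -2.23, -1.86 and -1.70. The 5 most positive were Id3, Lxn, Aldoc, Sparcl1 and Junb. Id3, an inhibitor of differentiation, was at 400, 733 and 484 CPM and then listed at 0 at both juvenile ages in nIPC cells, and at 31.6, 9.06, 21.3, 0 and 42.5 CPM in Neuroblast cells. Its fitted difference of 11.998 depends on those zeros. Lxn, Aldoc, Sparcl1 and Junb followed at 5.62, 5.20, 4.54 and 4.28. Junb was at 34.6, 168, 115, 31.4 and 10.96 CPM in nIPC cells at the same ages, so its fitted changes had opposite signs in the 2 classes. Lxn, Aldoc and Sparcl1 were at 0 to 31.4 CPM in nIPC cells at P18 and P19. The nIPC sums held 63733 UMIs at P18 and 91244 at P19, so these levels, that of Junb included, rest on a few UMIs. At P23, left out of the fit, nIPC cells held Id3 at 45.8, Lxn at 64.1, Aldoc at 101, Sparcl1 at 147 and Junb at 55.0 CPM. P18 and P19 held 29 nIPC cells each, and without P19 edgeR called 0 genes, with 493 under an unadjusted p of 0.05. Without P18 it called 9, without P0 57, without E16.5 73 and without P5 93.

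Adult Neuroblast cells, 130 at P120 and 25 at P132, were compared with juvenile ones. Of 2728 genes tested, 10 were called (0.367%), 8 higher (0.293%) and 2 lower (0.0733%), and 188 had an unadjusted p under 0.05. The lower genes were Tac2 and Nrgn. Tac2 was at 193, 197 and 337 CPM at perinatal ages, at 438, 184 and 143 CPM at juvenile ages and at 33.8 and 62.9 CPM at adult ages, with both adult ages below all earlier ones. It fell by 2.39 ± 0.55 on the log2 scale from juvenile to adult ages (SE, edgeR adjusted p = 0.0435). Nrgn was at 14.5 CPM at P120 and 0 at P132, from 6 adult UMIs (log2 fold change -3.08 ± 0.70, SE, edgeR adjusted p = 0.0416).

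The higher genes included Gm8730, 5 further genes with names of pseudogenes or unnamed models (Gm10263, Gm10020, Rpl10-ps3, Gm6483 and Rps12-ps3) and PISD, a symbol that the table lists beside Pisd. Copies of ribosomal protein genes share sequence, and their counts are uncertain. Without P132 the test called 59 genes, without P18 3, without P23 1 and without P120 1. DESeq2 called 1 gene.

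Ccnd2, chosen after its values were seen, did not pass the test in the adult cells. This gene, the cyclin of early cell cycle entry, was at 350, 367 and 390 CPM at perinatal ages, at 195, 574 and 589 CPM at juvenile ages and at 1427 and 1070 CPM at adult ages. Both adult ages were above all others (log2 fold change 1.47 ± 0.38, SE, edgeR adjusted p = 0.0974). Of 17 genes of mitochondria and energy metabolism tested, 0 were called by edgeR and by DESeq2, 8 had an unadjusted p under 0.05, all lower, and 16 had negative fold changes. Of all 2728 genes, 88 were lower at that unadjusted p and 1337 had negative fold changes. P120 stood lowest in all 8 mitochondrial genes of the list, for example at 4817 CPM of mt-Atp6 against 18463 CPM at P132 and 19294 to 35549 CPM at juvenile ages. Markers of inhibitory neurons were highest at P120: the 9 listed genes summed to 261 CPM there, to 126 CPM at P132 and to 24.3 to 125 CPM at the earlier ages, with the homeobox gene Dlx2 at 82.1 CPM at P120. A UMI of this list was found in 13.1% of thinned P120 cells (interval 7.81 to 20.1) and in 0 of 33 vascular and immune cells, which allows a share of up to 9.09%. At P132 the share was 12% (3 of 25 cells, interval 2.55 to 31.2), close to that of P120. The part of inhibitory neuroblasts in the P120 class was not tested.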

How the data were processed

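The deposited UMI counts of 27933 genes in 24185 cells came from 11 libraries of microdissected dentate gyrus dissociated with papain, per the labels' protocols. Cell Ranger and mm10 are named in the submitters' processing notes, with versions not given in the sources used here. Cell clusters and ages were taken from the authors' deposited cell table, and no doublet caller was run. The raw counts were summed by class and age, and only ages with 20 or more cells of a class entered a fit. In R 4.3.3, edgeR 4.0.16 filtered genes with filterByExpr, scaled by TMM and fitted its quasi-likelihood F test, with Benjamini-Hochberg adjustment over all genes tested. A gene was called at an adjusted p under 0.05. The SE of a log2 fold change is its size divided by the square root of F. DESeq2 1.42.0, other scalings, no filter, thinned or fewer cells and each age left out were alternatives. Shares used cells thinned to 1000 UMIs and exact 95% binomial intervals. The fits were also run on simulated counts with planted changes and the same dispersion for every gene. Those counts held no pool that departed from the rest, so they cannot show how such a pool affects the calls.

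The members and gene lists were chosen with earlier results of these data known. Named were up to 15 called genes in each direction whose stages did not overlap, by largest fold change, up to 5 in each direction of an interaction test, and list members. Lists of cell cycle, progenitor, Notch, guidance, chromatin, peptide and GABA receptor genes were counted in the same way. Of these, edgeR called 1 of 15 progenitor genes lower (Vim), 1 of 19 guidance genes lower (Cntn2), 1 of 23 chromatin genes higher (Hist1h2bc), and 0 of 9 Notch, 0 of 11 peptide and 0 of 4 GABA receptor genes between juvenile and perinatal ages. No gene of the microglia, endothelial, leptomeningeal or Cajal-Retzius lists passed the filter there. The replicate numbers in the labels count parts of 1 age and cluster and were not used. Some called genes are not reported here.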

Additional observations from a re-analysis of the deposited data

Results flagged for a closer look

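The genes below stood out because a test of the difference itself, the class by stage interaction in edgeR, called them. Each value is the change from perinatal to juvenile ages in Neuroblast cells minus that in the other class, on the log2 scale.

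Against Immature-GC cells, the difference was 2.41 for Nrgn and 1.88 for Prox1os, and it was -2.27 for Egr1 and -2.17 for Junb. DESeq2 called Egr1 and Junb and not Nrgn or Prox1os. Against nIPC cells, the difference was 11.998 for Id3, 5.62 for Lxn, 5.20 for Aldoc, 4.54 for Sparcl1 and 4.28 for Junb. It was -2.41 for Mfap4, -2.29 for Emx1, -2.23 for E130114P18Rik, -1.86 for Elavl4 and -1.70 for Gadd45g. Without P19, none of the nIPC differences was called by edgeR, with 493 genes under an unadjusted p of 0.05. The fitted change of Junb was 1.88 in Neuroblast, 3.75 in Immature-GC and -2.52 in nIPC cells. The nIPC fit left out P23, so these fits do not rest on the same ages. The juvenile nIPC levels of Id3, Lxn, Aldoc, Sparcl1 and Junb in that fit were 0 or rested on a few UMIs. No group held the 4 ages that a search for outlying samples needs.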

How the results depend on the processing

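In the juvenile against perinatal test, 31 genes were called, against 249 with no filter on low counts, 80 by DESeq2, 9 in thinned cells, 18 without cycling cells, 13 with equal numbers of cells, and 2 to 103 with 1 age left out. In the adult against juvenile test, 10 genes were called, against 18 with no filter, 1 by DESeq2, 1 in thinned cells, 2 without cycling cells, 2 with equal numbers of cells, and 1 to 59 with 1 age left out. Against Immature-GC cells, 4 differences were called, against 7 with DESeq2's scaling factors, 25 with no filter, 2 by DESeq2, 10 without cells of very many UMIs, 1 in thinned cells, and 1 to 39 with 1 age left out. Against nIPC cells, 25 were called, against 75 with no filter, 11 in thinned cells and 0 to 93 with 1 age left out. The cause was not tested, apart from the fewer genes tested in thinned and equal cells (2241 and 1419 against 7091 in the first comparison).

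In each of these alternatives to the first comparison, the called genes that could be tested kept their direction. The share of all cells differed by -8.08 to -6.91 percentage points and that of the lineage by -31.3 to -22.4 points with 1 age left out. The log2 ratio of Neuroblast to nIPC cells, 0.14 higher at juvenile ages, was -0.17 to 0.65 with 1 age left out and -0.69 among cells with 2000 or more UMIs. The juvenile minus perinatal share of cells with a Neurod4 UMI was -3.09 points in unthinned cells, opposite to thinned cells. Leaving out cells with genes of other cell types was not run, since most ages then held under 20 cells. The fit with library number as a block and the fits without scaling factors were chosen after seeing the data. No paired analysis was possible because the replicate numbers in the labels count parts of 1 age and cluster and cannot be tied to cells. The library number, whose meaning is not stated, is no such replicate number, and its block pairs P0 with P18 and P5 with P23 (46 genes called). Depth was lowest at P18 and P132, where 1 UMI was worth 24.3 and 21.0 CPM, so low genes could not be resolved there.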
